A study of Mus musculus with 131 samples.

Results

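The 32 genes described here encode proteins of DNA replication and of mitosis, and were measured in single cells of mouse blastocysts in which cells derived from injected embryonic stem cells (ESCs) and host cells carry different fluorescent transgenes. The genes were taken by symbol from the expression table. They comprise 17 genes of DNA replication and 15 genes of mitosis, and all 32 were found among the 13927 genes of the table. The expression data comprised 55 RFP cells, which carry an Actin-RFP transgene, and 40 GFP cells, which carry an Actin-GFP transgene. Both groups came from reconstructed C57BL/6J blastocysts at embryonic day 4.0 and were picked one by one with a micromanipulator. The series' design text gives injected Actin-RFP ESCs and Actin-GFP host embryos as the 2 sources for its embryos of day 7.5, and the cells of the blastocysts are named here by their transgene. Promoter DNA methylation came from 3 bisulfite libraries: Actin-RFP ESCs at passage 10, homozygous Gjb2-35delG ESCs at passage 7 (ESCs with a deletion of 1 base in the connexin gene Gjb2), and wild-type mouse embryonic fibroblasts (MEFs) at passage 2. Each was 1 culture of 1 line, and all samples were of strain C57BL/6J. The other samples of the series were not analysed here.

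No label names the embryo that a cell came from, and a group of cells therefore counts as 1 sample here. Differences between RFP and GFP cells have no replicate check and no test, and the intervals below cover counting error only. Intervals of shares of cells treat cells as independent, and whether they overlap is not a test between the groups. RFP cells held 518064 to 9562072 reads and 2094 to 7768 detected genes per cell, against 1996187 to 8315062 reads and 2626 to 7645 detected genes in GFP cells. The medians were 4527 genes in RFP cells and 5209 in GFP cells. No pair of the 95 cells had identical reads. Mitochondrially encoded reads exceeded 10% in 5 cells, of which 4 were RFP cells (RFP6, RFP14, RFP41 and RFP44) and 1 was a GFP cell (GFP27). RFP6 stood farthest apart, with 62.0% mitochondrially encoded reads and the lowest read total. Markers separated the groups by lineage as well as by origin. All 14 trophectoderm markers (the outer, placenta-forming layer) were lower in RFP cells, with summed levels per cell of 0.627 to 3583 CPM (reads of a gene per 1000000 reads of the cell, the unit used throughout) in RFP cells and 20.3 to 16852 CPM in GFP cells. Of 13 epiblast markers (the layer that forms the embryo proper), 10 were at least 2-fold higher in RFP cells. Nanog (19.1 CPM in RFP and 26.8 CPM in GFP cells) and Zfp42 (355 and 387 CPM) were lower in RFP cells. Sums of the 13 markers ranged from 139 to 24661 CPM in RFP cells and from 3138 to 9277 CPM in GFP cells. Dppa5a, found at 10 CPM in every cell, made the largest part of these sums, with group levels of 7126 CPM in RFP cells and 4943 CPM in GFP cells. Cdx2 and Gata2 of the trophectoderm and Gata4 and Pdgfra of the primitive endoderm reached 10 CPM in no RFP cell. Among GFP cells Cdx2 reached it in 16 and Gata2 in 8, but Gata4 and Pdgfra in only 2 each. Of the other primitive endoderm markers, Gata6 reached 10 CPM in 34 GFP and 2 RFP cells, and Dab2 in 38 and 3. Lamb1 did so in 9 GFP and 4 RFP cells, and the rest of that list in fewer cells. Other trophectoderm markers did reach 10 CPM in RFP cells. Krt18 did so in 29 RFP and 39 GFP cells, Cldn4 in 23 and 34, and Krt8 in 18 and 39. The 12 primitive endoderm markers summed to 0 to 731 CPM in RFP cells and 0 to 2019 CPM in GFP cells. GFP27 went against its group, with a trophectoderm sum of 20.3 CPM. Origin and lineage therefore cannot be told apart in any difference between the groups that follows.

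Before S phase, origins of replication are licensed by Cdc6 and Cdt1, which load the ring of the helicase subunits Mcm2 to Mcm7 onto DNA. Cdc45 and the GINS complex then activate the helicase, the clamp Pcna tethers DNA polymerases, and ribonucleotide reductase and thymidylate synthase supply nucleotides. Mitosis follows when Cdk1 with cyclins A and B drives chromosome condensation, spindle assembly and, through Cdc20 and the anaphase-promoting complex, chromosome separation. In most somatic cells the transcripts of the replication genes peak at the entry into S phase, through E2F factors, and those of the mitosis genes in G2 and M, through factors that act at CHR elements and CCAAT boxes. Mouse ESCs divide fast, with a short G1 phase.

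The promoters carried these elements in different shares in the replication and mitosis members. RefSeq promoter sequences (build GRCm38.p6, 250 bases before to 50 bases after each gene start) were found for 27 of the 32 members. Gins2, Mcm4, Gmnn, Ccna2 and Aurkb had no entry. The E2F words searched were TTTCCCGC, TTTCGCGC, TTTGCCGC and TTTGGCGC, the CHR words were TTTGAA and TTCGAA, and the CCAAT box was CCAAT, all on both strands. An E2F word stood in 6 of 14 replication members (Cdc6, Cdt1, Mcm3, Mcm5, Mcm6 and Mcm7) and in 1 of 13 mitosis members (Cdk1). It stood in 2.26% of all 32851 promoter windows of the table. A CHR word stood in 3 of 14 replication members (Cdc45, Mcm2 and Mcm7) and in 11 of 13 mitosis members, all but Ccnb1 and Cenpe, against 19.2% of all promoter windows. CCAAT stood in 10 of 14 replication members and in all 13 mitosis members with a sequence, against 37.4% of all promoter windows. The promoter windows of all genes were not limited to expressed genes or matched for CG content. These shares therefore do not show that the words are particular to the members. A match describes these letters only and does not show that a factor binds there. A link between these words and levels was not tested. With an E2F word, Mcm3 and Mcm7 were also higher in RFP cells and Cdc6 was not (log2 ratio of RFP over GFP cells -0.15). With a sequence but no such word, Mcm2 (1.80), Ccne1 (1.70) and Pcna (1.23) were higher, Rrm1 (-1.29) and Rrm2 (-0.63) lower, and others between. The promoters below are examples of both arrangements. Mcm5, Mcm6 and Cdt1 are replication members with an E2F word that were higher in RFP cells. Ccnb2, Cdc20 and Bub1 are mitosis members with a CHR word, of which Bub1 alone was more than 2-fold higher. They lie at chr8:75109259-75109558 (Mcm5, + strand), chr1:128359656-128359955 (Mcm6, - strand), chr8:122567765-122568064 (Cdt1, + strand), chr9:70421505-70421804 (Ccnb2, - strand), chr4:118437294-118437593 (Cdc20, - strand) and chr2:127831810-127832109 (Bub1, - strand). Each is printed 5′ to 3′ on the gene's strand, and capitals mark E2F, CHR and CCAAT words or their reverse complements.
Mcm5: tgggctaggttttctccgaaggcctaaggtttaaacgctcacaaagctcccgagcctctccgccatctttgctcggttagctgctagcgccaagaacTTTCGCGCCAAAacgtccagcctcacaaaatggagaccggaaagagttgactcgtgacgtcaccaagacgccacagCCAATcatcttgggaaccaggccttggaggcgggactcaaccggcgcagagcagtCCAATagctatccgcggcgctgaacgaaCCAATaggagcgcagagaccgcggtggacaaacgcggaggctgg
Mcm6: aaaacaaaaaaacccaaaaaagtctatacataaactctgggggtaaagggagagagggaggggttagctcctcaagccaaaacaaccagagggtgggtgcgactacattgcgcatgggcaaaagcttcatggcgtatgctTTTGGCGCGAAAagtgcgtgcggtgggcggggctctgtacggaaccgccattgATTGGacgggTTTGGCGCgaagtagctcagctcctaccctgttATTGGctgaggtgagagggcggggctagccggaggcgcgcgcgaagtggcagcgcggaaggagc
Cdt1: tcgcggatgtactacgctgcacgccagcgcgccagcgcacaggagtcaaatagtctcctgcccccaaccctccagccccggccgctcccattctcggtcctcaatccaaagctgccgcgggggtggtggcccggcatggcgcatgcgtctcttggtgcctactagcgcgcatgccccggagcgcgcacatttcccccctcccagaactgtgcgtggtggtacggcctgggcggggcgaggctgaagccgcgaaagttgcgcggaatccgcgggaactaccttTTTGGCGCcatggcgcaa
Ccnb2: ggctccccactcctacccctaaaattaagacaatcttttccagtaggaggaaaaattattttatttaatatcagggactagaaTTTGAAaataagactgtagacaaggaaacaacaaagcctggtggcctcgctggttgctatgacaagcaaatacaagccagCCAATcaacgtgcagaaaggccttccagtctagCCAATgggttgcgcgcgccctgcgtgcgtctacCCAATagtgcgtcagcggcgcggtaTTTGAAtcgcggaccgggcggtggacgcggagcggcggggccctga
Cdc20: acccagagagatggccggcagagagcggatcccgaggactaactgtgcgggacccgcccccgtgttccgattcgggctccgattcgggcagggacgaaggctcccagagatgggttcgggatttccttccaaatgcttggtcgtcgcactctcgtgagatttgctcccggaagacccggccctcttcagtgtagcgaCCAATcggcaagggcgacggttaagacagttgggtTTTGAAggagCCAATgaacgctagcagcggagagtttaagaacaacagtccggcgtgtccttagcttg
Bub1: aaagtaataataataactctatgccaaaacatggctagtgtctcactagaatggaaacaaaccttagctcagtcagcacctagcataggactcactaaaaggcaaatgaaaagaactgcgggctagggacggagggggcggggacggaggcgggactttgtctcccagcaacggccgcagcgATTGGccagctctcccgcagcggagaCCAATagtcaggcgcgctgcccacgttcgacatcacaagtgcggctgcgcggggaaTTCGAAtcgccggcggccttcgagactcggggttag
In Mcm5 the run of capitals that begins 153 bases before the start holds TTTCGCGC and, overlapping it on the other strand, TTTGGCGC. Mcm6 has such a pair of overlapping words 110 bases before the start and a further TTTGGCGC 47 bases before it. The E2F word of Cdt1 lies 32 bases after the start. In Ccnb2 and Bub1 a CHR word begins within 14 bases after the start, and in Cdc20 it lies 18 bases before it. TTCGAA, the CHR word of Bub1, reads the same on both strands.

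The replication genes were higher in RFP cells for the helicase, its loading factor Cdt1, Pcna, Gins2 and cyclin E1, and lower for ribonucleotide reductase. Of the 17 replication members, 10 were at least 2-fold higher in RFP than in GFP cells (log2 ratio of group CPM of 1 or more, reads summed over the cells of a group, 1 CPM added), 1 was at least 2-fold lower, and 6 lay between. Of all 13927 genes, 25% were this much higher and 21.9% this much lower in RFP cells, and of the 8184 genes that reached 10 CPM in a group, as all 32 members did, 26.3% and 23.3%. The median log2 ratio was 1.22 over the replication members and 0.08 over all genes. Of the 15 mitosis members, 3 were at least 2-fold higher, none was 2-fold lower, and the median log2 ratio was 0.28. That share is near the share of all genes. With a mean of log2(CPM + 1) over cells, which weights every cell equally, the median difference was 0.63 for the replication members and -0.26 for the mitosis members, against -0.06 for all genes. Without the 5 cells over 10% mitochondrially encoded reads the medians in summed reads were 1.21 for the replication members and 0.28 for the mitosis members. On the scale of mean log2 values 9 of all 32 members were at least 1 higher and 7 at least 1 lower in RFP cells, against 13 and 1 in summed reads. Of all genes 8.53% were this much higher and 18.9% this much lower on the scale of mean log2 values, and of the genes that reached 10 CPM in a group 14.3% and 31.5%, so the members' share on the lower side was near or under these.

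**Figure D1:**
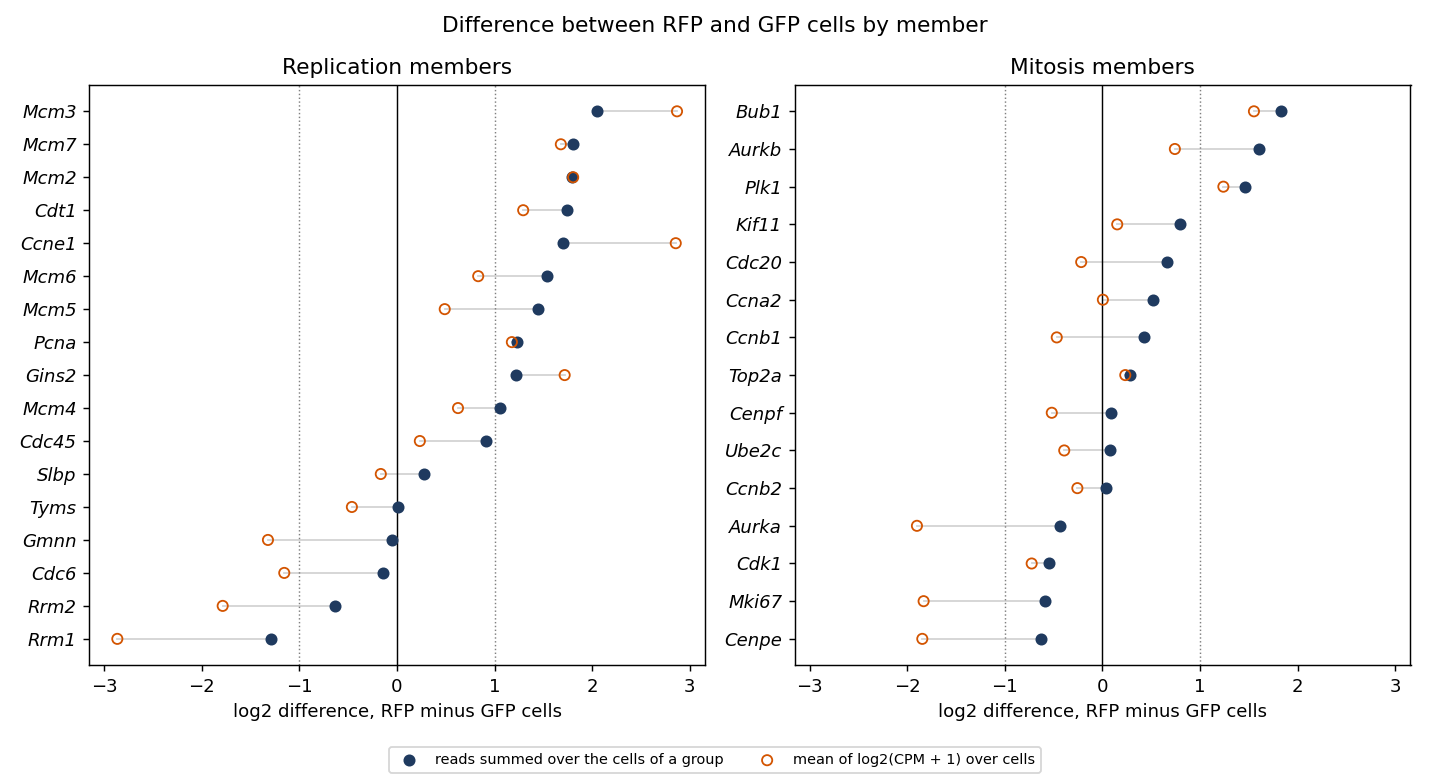
Differences between RFP and GFP cells for the 17 replication members (left) and the 15 mitosis members (right), on the log2 scale. Filled points are log2 ratios of reads summed over cells and open circles are differences of mean log2(CPM + 1) over 55 RFP and 40 GFP cells; dotted lines mark a difference of 1. Mcm3 (2.05) and Rrm1 (-1.29) are the ends of the replication members, and Bub1 (1.83) and Cenpe (-0.63) those of the mitosis members, in summed reads.

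All 6 subunits of the Mcm helicase were higher in RFP cells, with log2 ratios of 1.05 to 2.05. Mcm3 had 0, 350 and 1287 CPM in RFP cells (lowest, median, highest) and 0, 58.0 and 338 CPM in GFP cells. Most RFP cells lay above the GFP median, and the ranges overlapped. Summed over cells, Mcm3 reached 375 CPM (Poisson interval 373 to 377) in RFP cells and 89.5 CPM (88.3 to 90.8) in GFP cells, a log2 ratio of 2.05. Mcm6 had 0, 411 and 1735 CPM in RFP cells and 0, 128 and 656 CPM in GFP cells. Its levels at or above 10 CPM were found in 39 of 55 RFP cells and 30 of 40 GFP cells, so the Mcm6 difference lay in its level, beside similar shares of cells. Mcm5 reached 10 CPM in 38 of 55 RFP cells and 31 of 40 GFP cells, with a group level of 314 CPM in RFP cells and 115 CPM in GFP cells. The median cells of Mcm5 were closer, at 128 CPM in RFP cells and 99.0 CPM in GFP cells, and its log2 ratio of 1.45 in summed reads stood beside a difference of 0.49 in mean log2 values. Mcm2 and Mcm7 differed in both measures. Mcm2 reached 10 CPM in 39 of 55 RFP cells (70.9%, exact interval 57.1% to 82.4%) and 22 of 40 GFP cells (55%, 38.5% to 70.7%), and these intervals overlapped. Its group levels were 253 CPM in RFP cells and 71.9 CPM in GFP cells. Mcm7 reached 10 CPM in 47 of 55 RFP cells and 26 of 40 GFP cells, with group levels of 263 CPM in RFP cells and 74.7 CPM in GFP cells. Mcm4 had the lowest log2 ratio of the 6, 1.05, and 1 cell, RFP34, held 18.6% of its RFP reads. Without the cell with the most reads in each group the Mcm4 ratio was 0.90.

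The other members of the loading and activation machinery fell into 2 sets. Cdt1, the loading factor that is removed once S phase begins, had 0, 48.8 and 904 CPM in RFP cells and 0, 14.8 and 214 CPM in GFP cells, and a log2 ratio of 1.74. Its level was 10 CPM or more in 34 of 55 RFP cells and 21 of 40 GFP cells. Gins2, a subunit of GINS, reached 10 CPM in 35 of 55 RFP cells and 16 of 40 GFP cells, with a log2 ratio of 1.22. In GFP cells 29.4% of the Gins2 reads came from 1 cell, GFP3, and without the cell with the most reads in each group the ratio was 1.55. Cdc45, the helicase activator, reached 10 CPM in 21 of 55 RFP cells and 15 of 40 GFP cells, with a log2 ratio of 0.92. Cdc6, the other loading factor, went the other way by its share of cells: 21 of 55 RFP cells (38.2%, 25.4% to 52.3%) against 24 of 40 GFP cells (60.0%, 43.3% to 75.1%), with overlapping intervals. Its group levels were nearly equal, 82.3 CPM in RFP cells and 91.2 CPM in GFP cells, beside a difference of -1.15 in mean log2 values. Geminin (Gmnn), which inhibits Cdt1 after S phase begins, reached 10 CPM in 44 of 55 RFP cells and 39 of 40 GFP cells, at 374 CPM in RFP cells and 388 CPM in GFP cells. Its difference in mean log2 values was -1.32.

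Pcna, the clamp of the polymerases, had 0.346, 762 and 2057 CPM in RFP cells and 1.10, 288 and 929 CPM in GFP cells. Detection at 10 CPM held in 52 of 55 RFP cells and 38 of 40 GFP cells. Its group level was 866 CPM in RFP cells and 369 CPM in GFP cells, a log2 ratio of 1.23 that stayed between 1.12 and 1.28 in every setting tried. Cyclin E1 (Ccne1), which activates Cdk2 at the entry into S phase, had 0, 233 and 1585 CPM in RFP cells and 0, 0.629 and 659 CPM in GFP cells. It reached 10 CPM in 40 of 55 RFP cells (72.7%, 59.0% to 83.9%) and 16 of 40 GFP cells (40%, 24.9% to 56.7%), the widest gap in share of cells in favour of RFP cells among the 32 members. Its log2 ratio was 1.70.

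The subunits of ribonucleotide reductase, which makes deoxynucleotides, were lower in RFP cells. Rrm1 had 0, 92.0 and 832 CPM in RFP cells and 0, 276 and 1785 CPM in GFP cells. It reached 10 CPM in 33 of 55 RFP cells (60.0%, 45.9% to 73.0%) and 38 of 40 GFP cells (95%, 83.1% to 99.4%). The group levels were 158 CPM in RFP cells and 387 CPM in GFP cells, a log2 ratio of -1.29, and Rrm1 was lower in RFP cells in every setting tried. Rrm2 had 0, 383 and 1489 CPM in RFP cells and 2.91, 674 and 1634 CPM in GFP cells. Its log2 ratio was -0.63 and its difference in mean log2 values -1.78. Thymidylate synthase (Tyms) had nearly equal group levels, 277 CPM in RFP cells and 275 CPM in GFP cells. Slbp, the binding protein of histone messenger RNA, had 401 CPM in RFP cells and 330 CPM in GFP cells. Genes of the S phase program differed in opposite directions, and the order of the helicase above the reductase was the same in summed reads, in means over cells and in the authors' values.

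**Figure D2:**
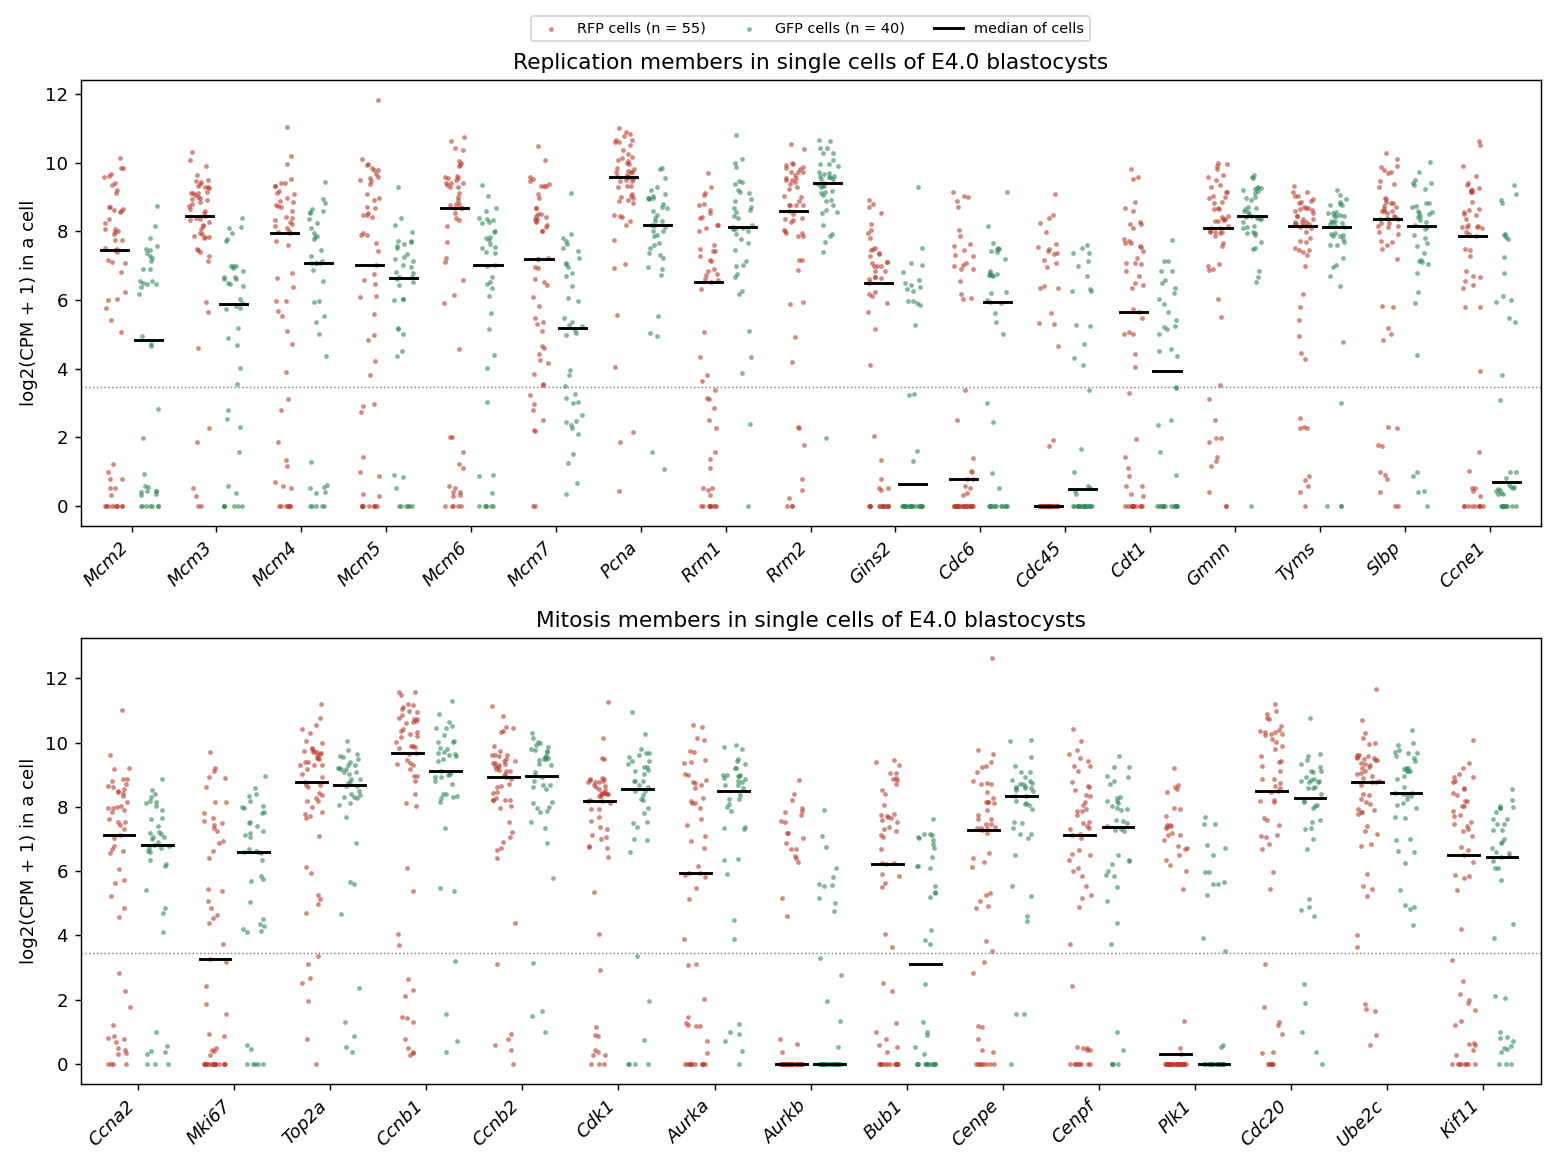
Levels of the 17 replication members (top) and 15 mitosis members (bottom) in each of 55 RFP cells (left column of each gene) and 40 GFP cells (right column), as log2(CPM + 1). Each point is a cell, bars are medians and the dotted line marks 10 CPM; the bars of Mcm3 and Ccne1 lie higher in RFP cells and that of Rrm1 lies lower, while cells near 0 appear in both groups for most members.

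Mitosis members showed no shared direction. The 3 members at least 2-fold higher in RFP cells were Bub1, Aurkb and Plk1, all kinases, and all 3 were detected in fewer cells than most mitosis members. Bub1, a kinase of the spindle checkpoint, had 0, 74.3 and 708 CPM in RFP cells and 0, 8.49 and 197 CPM in GFP cells, and reached 10 CPM in 34 of 55 RFP cells and 20 of 40 GFP cells. Its group level was 159 CPM in RFP cells and 43.8 CPM in GFP cells, a log2 ratio of 1.83. Plk1, a kinase of mitotic entry and spindle poles, reached 10 CPM in 25 of 55 RFP cells and 14 of 40 GFP cells, with group levels of 91.8 CPM in RFP cells and 32.7 CPM in GFP cells. Aurkb, the kinase of the chromosomal passenger complex, reached 10 CPM in 20 of 55 RFP cells (36.4%, 23.8% to 50.4%) and 11 of 40 GFP cells (27.5%, 14.6% to 43.9%), and these intervals overlapped. Its group levels were 67.3 CPM in RFP cells and 21.4 CPM in GFP cells.

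Aurka, the centrosome kinase, had 0, 61.0 and 1483 CPM in RFP cells and 0, 358 and 981 CPM in GFP cells. It reached 10 CPM in 34 of 55 RFP cells and 34 of 40 GFP cells. Its log2 ratio of -0.43 in summed reads became a difference of -1.90 in the mean of log2(CPM + 1), a scale on which every cell weighs the same. Mki67, the proliferation marker Ki-67 that coats mitotic chromosomes, was at 10 CPM or more in 27 of 55 RFP cells (49.1%, 35.4% to 62.9%) and 33 of 40 GFP cells (82.5%, 67.2% to 92.7%). Its group levels were 91.3 CPM in RFP cells and 138 CPM in GFP cells. Cenpe, a kinetochore motor, had group levels of 220 CPM in RFP cells and 341 CPM in GFP cells, and reached 10 CPM in 40 of 55 RFP cells and 37 of 40 GFP cells. RFP14, a cell with over 10% mitochondrially encoded reads, had 6307 CPM of Cenpe and 2342 CPM of Top2a, the highest level of each gene in RFP cells. RFP6 had 591 CPM of Mki67. In the authors' deposited normalized values the group means over all cells gave log2 ratios of 2.66 for Cenpe and 2.01 for Mki67. Without the 5 cells over 10% mitochondrially encoded reads, the same values gave -0.93 for Cenpe and -0.57 for Mki67. The part of RFP14 and RFP6 alone in this change was not tested. In the authors' deposited table the log2 fold changes were -0.93 for Cenpe and -0.62 for Mki67, and 30 of the 32 members had the sign found here, all but Tyms and Slbp.

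The remaining mitosis members, like Aurka, Mki67 and Cenpe, differed by less than 2-fold in summed reads. In mean log2 values Mki67 (-1.83) and Cenpe (-1.85) were, like Aurka, at least 1 lower in RFP cells, and the members below were not. The cyclins and their kinase lay at log2 ratios of 0.52 for Ccna2, 0.42 for Ccnb1, 0.03 for Ccnb2 and -0.55 for Cdk1. Ccnb1, cyclin B1, had 0.222, 817 and 3079 CPM in RFP cells and 0.297, 550 and 2514 CPM in GFP cells. It reached 10 CPM in 44 of 55 RFP cells and 36 of 40 GFP cells, so a higher level in summed reads stood beside a lower share of cells. Cdk1, the mitotic kinase, had 0, 287 and 2459 CPM in RFP cells and 0, 376 and 1968 CPM in GFP cells. Top2a, the topoisomerase that untangles chromosomes, had a log2 ratio of 0.28 and a median of 432 CPM in RFP cells and 413 CPM in GFP cells. Kif11, the motor that separates spindle poles, had a log2 ratio of 0.80, and Cenpf, a kinetochore protein, one of 0.08. Of the genes of the anaphase-promoting complex, Cdc20, its activator, had a log2 ratio of 0.66 and Ube2c, its ubiquitin-conjugating enzyme, one of 0.08. Ube2c was found at 10 CPM or more in 50 of 55 RFP cells and in all 40 GFP cells, the largest share of cells among the mitosis members in each group.

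Other genes of replication, mitosis and cell cycle control were compared in the same way. Of 60 other replication genes, 21 were at least 2-fold higher and 5 at least 2-fold lower in RFP cells, with a median log2 ratio of 0.56 and a median difference of 0.42 in mean log2 values. Among those that reached 10 CPM in either group, high ratios included the polymerase subunit Pold1 (3.22) and the helicase-like protein Hells (2.58), and the lowest were the deubiquitinase Usp1 (-1.53), Mcm8 (-1.5) and thymidine kinase Tk1 (-1.39). Thymidine kinase, like ribonucleotide reductase, supplies nucleotides. Of 64 other mitosis genes, 13 were at least 2-fold higher and 4 at least 2-fold lower, both under the shares of all genes (25% and 21.9%). Their median was 0.33 in summed reads and turned to -0.17 in mean log2 values. By the ratios in summed reads at the same minimum, Kif2c (2.68), Cep55 (2.40) and Nuf2 (1.96) were the highest, and Anln (-1.91), Hjurp (-1.55) and Cdc25c (-1.12) the lowest. Of 49 regulators of the cell cycle, 22 were at least 2-fold higher and 6 at least 2-fold lower, with a median of 0.72 in summed reads and of 0.04 in mean log2 values. The G1 cyclin Ccnd1 had 89.4 CPM in RFP cells and 1.23 CPM in GFP cells, a log2 ratio of 5.34. In 29 of 55 RFP cells and 3 of 40 GFP cells Ccnd1 reached 10 CPM. Cdk6, a partner of D cyclins, had 176 CPM in RFP cells and 14.3 CPM in GFP cells, and Trp53, which encodes p53, had 390 CPM in RFP cells and 23.2 CPM in GFP cells. Cdkn1a, the Cdk inhibitor p21 and a target of p53, went the other way, with 222 CPM in RFP cells and 768 CPM in GFP cells, as did Mdm2, which degrades p53 (log2 ratio -1.38). Cdkn2c, an inhibitor of Cdk4 and Cdk6, had 0.0129 CPM in RFP cells, where no cell reached 10 CPM, and 14.6 CPM in GFP cells, 12 of 40 of which did.

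Each cell was given a replication score and a mitosis score, the means of log2(CPM + 1) over the 17 and the 15 members. The replication score averaged 5.95 ± 1.93 in RFP cells and 5.49 ± 1.28 in GFP cells, and the mitosis score averaged 5.80 ± 2.11 in RFP cells and 6.08 ± 1.71 in GFP cells (SD over 55 and 40 cells). The replication score ran from 1.33 to 9.07 in RFP cells and from 1.21 to 7.67 in GFP cells, so that the groups overlapped. Of the 15 mitosis members, the median cell had 11 at 10 CPM or more among RFP cells and 12 among GFP cells. Of the 17 replication members it had 14 among RFP cells and 13 among GFP cells. All 17 replication members were at 10 CPM or more in 5 of 55 RFP cells and 2 of 40 GFP cells, and all 15 mitosis members in 7 of 55 RFP cells and 5 of 40 GFP cells. Scores were then centred and scaled within each group. A cell was called S where the scaled replication score was above 0 and at least equal to the mitosis score, and G2/M where the scaled mitosis score was above 0 and the higher one. By this rule 16 RFP cells (29.1%, exact interval 17.6% to 42.9%) were called S, 22 (40%, 27% to 54.1%) G2/M and 17 neither. Of the GFP cells 13 (32.5%, 18.6% to 49.1%) were called S, 17 (42.5%, 27% to 59.1%) G2/M and 10 neither. Centring within a group fixes the middle of each score, so these shares describe the spread within a group and were not compared between groups. The calls are ranges of a score and not cell types, and 17 RFP cells and 10 GFP cells lay within 0.25 SD of a boundary. Without the 5 cells over 10% mitochondrially encoded reads, 15 RFP cells and 13 GFP cells were called S, and 22 RFP cells and 17 GFP cells G2/M.

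**Figure D3:**
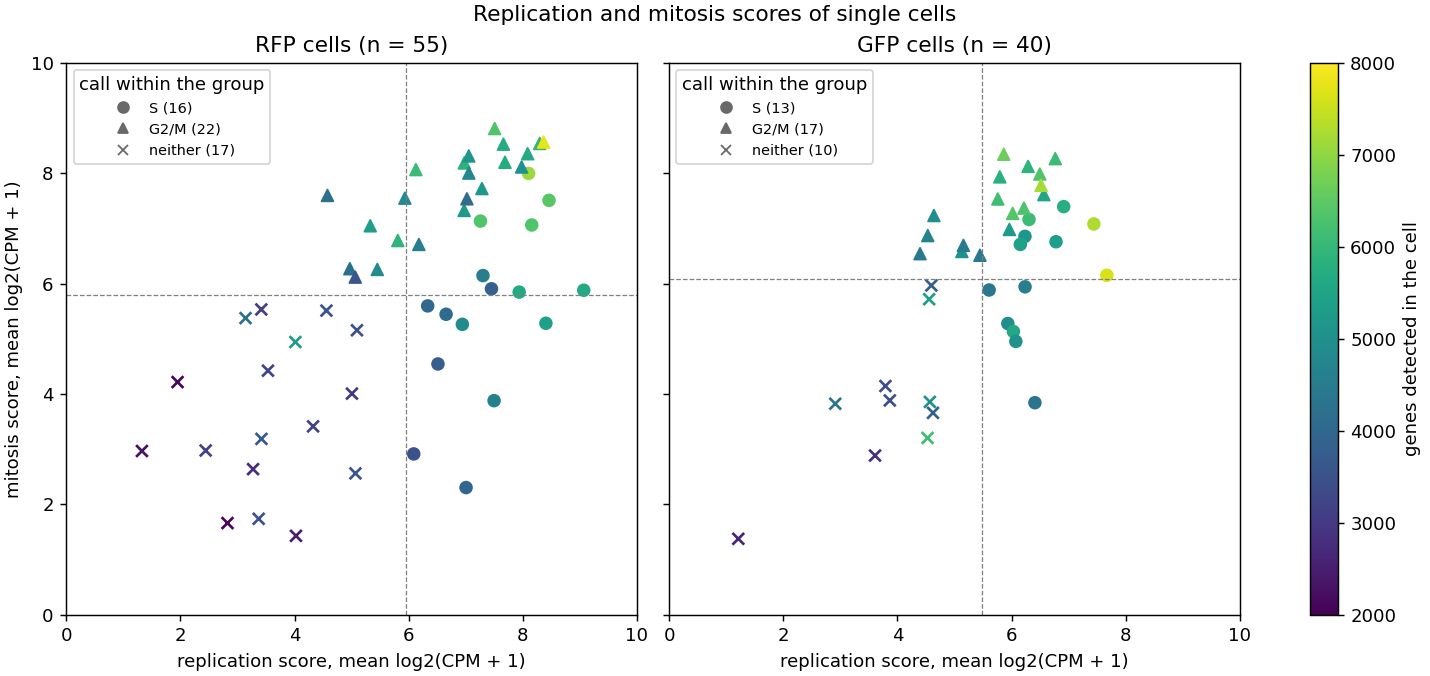
Replication score (x) against mitosis score (y) of 55 RFP cells (left) and 40 GFP cells (right), both as mean log2(CPM + 1). Colour gives the genes detected in the cell, dashed lines mark the means of the group, and shapes mark the S, G2/M and neither calls (16, 22 and 17 RFP cells; 13, 17 and 10 GFP cells); the median of genes detected is lower in cells called neither than in cells called G2/M, and single cells overlap.

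Both scores moved with the number of genes detected in a cell. Over the 55 RFP cells Spearman's rho with genes detected was 0.78 for the replication score and 0.79 for the mitosis score, and over the 40 GFP cells it was 0.67 and 0.70. Cells called neither had a median of 3174 genes detected in RFP cells and 3808 in GFP cells, against 5215 and 5811 for the RFP and GFP cells called G2/M. The replication and mitosis scores correlated with each other at 0.65 over RFP cells and 0.59 over GFP cells, and at 0.09 over RFP cells and 0.19 over GFP cells once a line on genes detected was taken from each. Read totals were less related to the scores (0.19 and -0.02 in RFP cells, 0.34 and 0.12 in GFP cells, for replication and mitosis). The mean level of epiblast markers correlated with the replication score at 0.60 over RFP cells, and that of trophectoderm markers at 0.62 over GFP cells; these marker levels correlated with genes detected at 0.66 over RFP cells and 0.77 over GFP cells. The part of genes detected in the calls was not tested beyond these values. With both scores taken as residuals on genes detected, 41 of 55 RFP cells and 33 of 40 GFP cells kept their call. All 5 cells over 10% mitochondrially encoded reads were called neither. Their replication scores were 1.33 in RFP6, 2.44 in RFP14, 3.27 in RFP41, 4.01 in RFP44 and 1.21 in GFP27.

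Single cells at the ends of the distribution showed the members moving apart. RFP30 had a replication score of 7.01 and a mitosis score of 2.30, with 14 of 17 replication members and 3 of 15 mitosis members at 10 CPM or more. Its levels included 978 CPM of Mcm6, 732 CPM of Cdt1 and 515 CPM of Cdc6, against 1.75 CPM of Ccnb1, 0.87 CPM of Cdk1 and no read of Plk1, Aurkb or Bub1. The same cell held 1422 CPM of Ccnb2. RFP53 was its opposite, with scores of 4.58 and 7.60 and 11 replication and 14 mitosis members at 10 CPM or more; it had 2288 CPM of Ccnb1, 1365 CPM of Top2a and 0.5 CPM of Cdt1. Among GFP cells, GFP31 (scores 6.41 and 3.84) held 1599 CPM of Rrm2 and 572 CPM of Cdc6 without a read of Cdk1, Aurkb or Bub1. It also held 503 CPM of Ccnb2 and 447 CPM of Ccnb1, with 14 replication and 8 mitosis members at 10 CPM or more. GFP22 (4.64 and 7.24) held 1460 CPM of Ccnb1 and 476 CPM of Aurka without a read of Mcm2, Cdt1 or Cdc6. It also held 597 CPM of Gmnn and 579 CPM of Rrm2, with 10 replication and 13 mitosis members at 10 CPM or more. These cells were chosen as the ends of the scores, and their values describe them only.

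Pairs of members were more alike within the mitosis list than across the lists. With genes detected taken out, the median Spearman's rho over RFP cells was 0.17 for the 105 pairs of mitosis members, 0.12 for the 136 pairs of replication members and 0.02 for the 255 pairs of one of each. Over GFP cells these medians were 0.17, 0.09 and 0.07. The median over all pairs of genes that reached 10 CPM in 50% of cells or more was 0.09 in RFP cells and 0.04 in GFP cells, so most of these correlations were weak. The highest pair in RFP cells was Gmnn with Tyms (0.64), then Mcm2 with Mcm6 (0.58) and Pcna with Slbp (0.55). In GFP cells the highest pairs were Top2a with Cdk1 (0.65) and Cdk1 with Cenpf (0.65). Mki67 showed negative values with most replication members in RFP cells, the lowest being -0.37 with Gins2 and with Tyms, and values near 0 with Mcm2, Mcm3, Mcm5 and Ccne1. Its rho with the mean of all replication members was -0.41 over RFP cells and 0.17 over GFP cells. Points share the library of a cell, and sparse detection lowers such values.

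**Figure D4:**
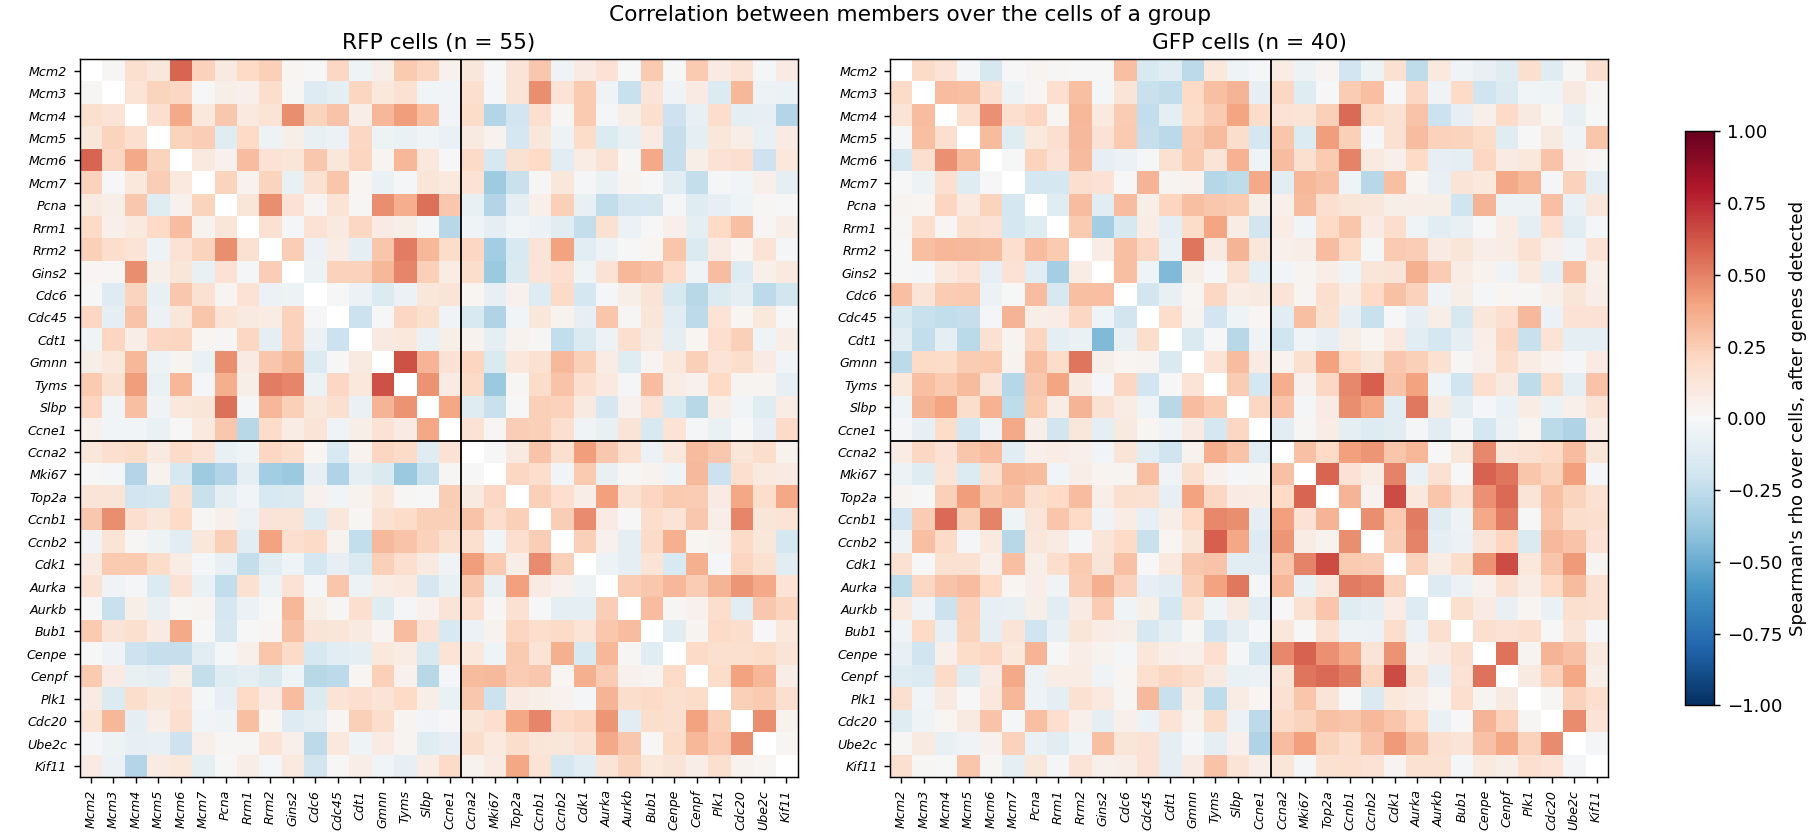
Spearman's rho between each pair of the 32 members over 55 RFP cells (left) and 40 GFP cells (right), after a line on genes detected was taken from log2(CPM + 1). Black lines separate replication members from mitosis members. In RFP cells the row of Mki67 is blue against most replication members and near 0 for Mcm2, Mcm3, Mcm5 and Ccne1. The mitosis block is darkest around Mki67, Top2a, Cdk1, Cenpe and Cenpf in GFP cells.

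The genes outside the module that ran most alongside the mitosis score included several other genes of mitosis once genes detected was taken out. Among 2566 genes that reached 10 CPM in 50% or more of RFP cells, and with genes detected taken out, 4 of the 10 genes with the highest rho with the mitosis score were on the list of other mitosis genes (Cenpa, Nusap1, Hmmr and Tpx2), which held 1.33% of these genes. Cenpa, the histone H3 of centromeres, was first at 0.65, and the replication gene Mcm10 was also among the 10 (0.50). Among 3493 such genes in GFP cells, 6 of 10 were on that list (Nusap1, Knl1, Hmmr, Ckap5, Cenpa and Birc5), which held 1.17% of these genes. Nusap1, a spindle protein, was first at 0.74, followed by the tubulin Tuba1c at 0.68. Without taking out genes detected, 1 of 10 genes in RFP cells and 3 of 10 in GFP cells were on the list of other mitosis genes, and Mcm10 (0.75) was first in RFP cells. For the replication score, 0 of 10 genes were on the list of other replication genes in either group. That list held 1.6% of these genes in RFP cells and 1.15% in GFP cells, so 10 genes are few for this count. Of the 50 genes with the highest rho, with genes detected taken out, 1 (2%) was on that list in each group, near its share. For the mitosis score, 6 of 50 (12%) in RFP cells and 13 of 50 (26%) in GFP cells were on the list of other mitosis genes. The replication score thus did not run with other replication genes above their share. Among its 10 genes in RFP cells, with genes detected taken out, were Anapc5, Tdh, Trp53, Mybl2, Eno1 and Pgam1, with rho of 0.61 to 0.65. On the values before that step, the first for the replication score in RFP cells were the glycolytic enzymes Pgam1 (0.80) and Eno1 (0.79), and the first in GFP cells was Gstz1 (0.69).

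The members' promoters were weakly methylated in all 3 bisulfite libraries. From 1000 bases before to 500 bases after the gene start, the median over the 27 members with a known start was 4.21% of calls in Actin-RFP ESCs, 4.61% in Gjb2-35delG ESCs and 11.5% in MEFs. Under 10% stood 25 of 27 members in Actin-RFP ESCs, 19 in Gjb2-35delG ESCs and 12 in MEFs, against 38.7%, 25.4% and 16.6% of all genes. Medians over all genes were 18.3% in Actin-RFP ESCs, 41.3% in Gjb2-35delG ESCs and 52.3% in MEFs. All genes here were not limited to expressed ones or matched for CG content, so these values do not show that low methylation is particular to the members. Between 476 and 2382 calls lay behind each member in Actin-RFP ESCs, 435 to 1682 in Gjb2-35delG ESCs and 273 to 1840 in MEFs. Mcm5 was low throughout, at 3.10% of 1389 calls (Wilson interval 2.31% to 4.14%) in Actin-RFP ESCs, 3.11% of 1256 calls (2.28% to 4.22%) in Gjb2-35delG ESCs and 2.68% of 822 calls (1.77% to 4.02%) in MEFs. Mcm3, the replication member with the highest ratio between RFP and GFP cells, was the most methylated in Actin-RFP ESCs, at 11.8% of 821 calls (9.78% to 14.2%), against 22.2% of 550 calls (18.9% to 25.8%) in Gjb2-35delG ESCs and 20.7% of 711 calls (17.9% to 23.8%) in MEFs. Ccnb1 stood at 4.29% of 1166 calls in Actin-RFP ESCs, 4.28% of 771 calls in Gjb2-35delG ESCs and 27.9% of 470 calls in MEFs, and Ccnb2 at 6.13%, 12.8% and 26.7% in the same order. With 1 library of each kind these differences between libraries have no replicate check.

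The low stretch of the members was shorter in MEFs. This is not shown to be particular to the members, since no such profile was made for all genes. Under 10% within 500 bases of the start stood 44.9% of all genes in Actin-RFP ESCs and 30.1% in MEFs. From 2000 bases before to 1000 after the start these shares were 26.2% and 3.72%. In bins of 500 bases next to the gene start, member medians were 3.41% to 3.85% in Actin-RFP ESCs, 3.3% to 4.52% in Gjb2-35delG ESCs and 3.79% to 3.95% in MEFs. In the bin centred 1250 bases after the start they were 5.63% in Actin-RFP ESCs, 10.3% in Gjb2-35delG ESCs and 60.3% in MEFs, and in the bin 1250 bases before it 18.3%, 41.5% and 83.5%. At 4750 bases after the start the medians were 33.3% in Actin-RFP ESCs, 62.5% in Gjb2-35delG ESCs and 93.0% in MEFs. Within the window of the promoter values, the bin centred 750 bases before the start had medians of 6.76% in Actin-RFP ESCs, 7.92% in Gjb2-35delG ESCs and 28.8% in MEFs. Single members did differ next to the start, where the highest was 10.3% in Actin-RFP ESCs, 16.6% in Gjb2-35delG ESCs and 28.6% in MEFs in the bin before it, and 5.93%, 5.68% and 25.6% in the bin after it.

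**Figure D5:**
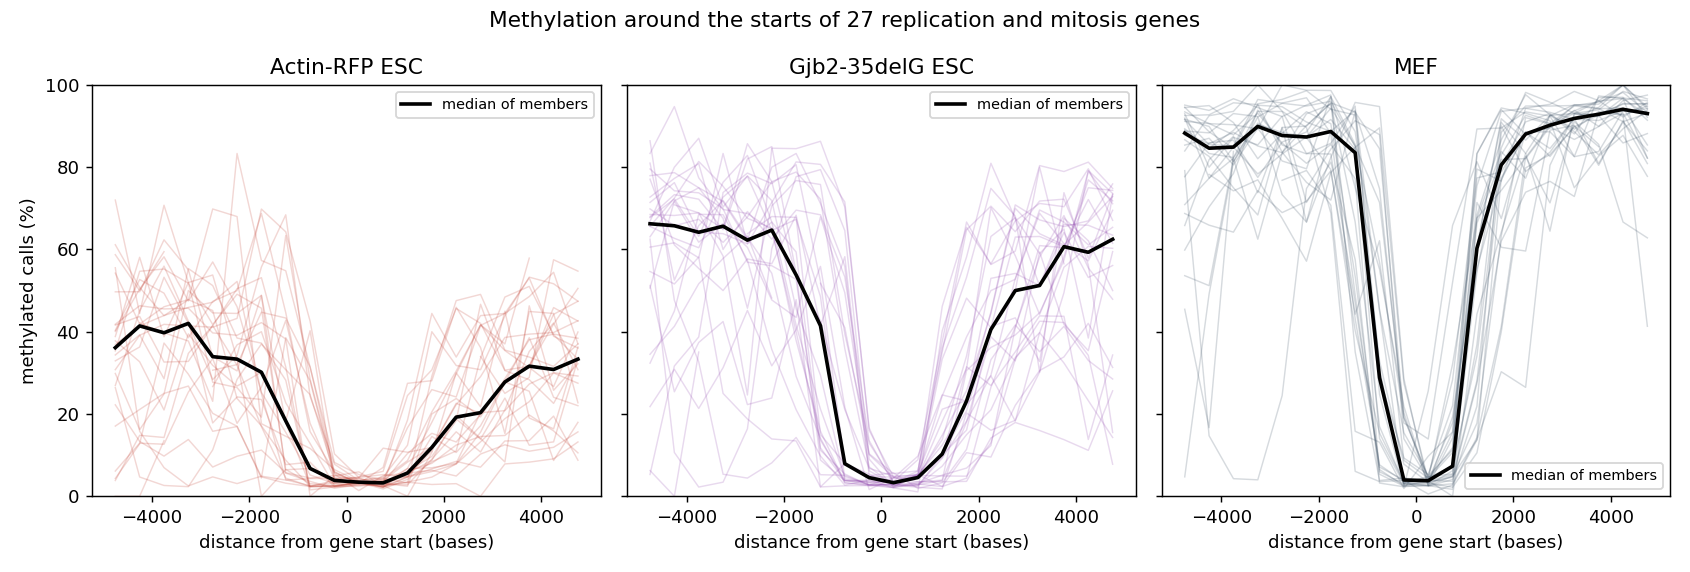
Methylated calls (%) in bins of 500 bases against distance from the gene start in Actin-RFP ESCs (left), Gjb2-35delG ESCs (middle) and MEFs (right). Thin lines are the 27 members with a known start and thick lines their medians, which lie under 5% next to the start in all 3 libraries and reach 33.3%, 62.5% and 93.0% at 4750 bases after it.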

How the data were processed

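Single-cell values, whose unit is a normalized signal, were deposited by the authors as 1 table of 95 cells with their log2 fold change and p-values. Per the submitters' processing notes, the tools include fastp 0.20.0 and, named without a role, DESeq2 1.30.0, featureCounts 2.0.0 and STAR 2.7.3a, with mm10 as the build. Counting options are not stated. The values are gene counts divided by a size factor per cell: dividing each deposited column by its step gave whole reads for 100% of values (tolerance 0.01), and CPM was computed from those reads as value over column sum. No count model was run, because each group is 1 sample. Counts of methylated and unmethylated calls per 200-base window were deposited for the bisulfite libraries, with 319285707, 287946900 and 316759867 calls in Actin-RFP ESCs, Gjb2-35delG ESCs and MEFs; per the series' design text they were made with the Accel-NGS Methyl-Seq kit. The amplicon data were not used.

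Log2 ratios added 1 CPM, and detection meant 10 CPM or more. Intervals are exact Poisson or binomial intervals for expression and Wilson intervals for methylation, at 95%; reads without molecular identifiers are not independent molecules, so they cover counting error only. Symbols were matched for 13922 of 13927 IDs. Exon lengths were not used, so levels were not compared between genes. Gene starts and promoter sequences came from RefSeq on GRCm38.p6, the assembly that mm10 names; a gene's windows were those overlapping its region. Residuals are from a straight line on genes detected. The members and the gene lists were chosen with earlier results of these data known. Every member was named; of the other lists the 3 highest and 3 lowest log2 ratios at 10 CPM or more, and per score and group 10 neighbours, were eligible; 1 gene so eligible is not reported here. Analyses used Python 3.11.15 with numpy 2.4.6, pandas 2.3.3, scipy 1.17.1 and matplotlib 3.10.9, and were tested on simulated data. The simulated reads were drawn from 1 mean profile, without the sparse detection of these cells. They therefore do not show how accurate the S and G2/M calls are here.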

Additional observations from a re-analysis of the deposited data

How the results depend on the processing

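No paired analysis was possible because each group of cells was 1 sample with no test, and the numbers that RFP and GFP titles share name single cells. The median log2 ratio of the replication members, 1.22, was 1.09 with 10 CPM added, 1.06 from means of CPM over cells, 0.63 from means of log2(CPM + 1), 1.13 from the authors' deposited values and 1.26 without the cell with the most reads of each gene. With alternatives chosen after seeing the data, it was 0.90 from the authors' values and 0.77 from means of log2(CPM + 1), both without the 5 cells over 10% mitochondrially encoded reads. The mitosis median, 0.28, was 0.39 from means of CPM and 0.62 from the authors' values, and 0.22 from the authors' values without those 5 cells. It turned to -0.26 from means of log2(CPM + 1) and to -0.18 on that scale without those cells. Members at least 1 lower in RFP cells numbered 7 on that scale with and without those cells, against 1, beside 18.9% and 18.6% of all genes. On it the median was -0.06 over all genes, above the mitosis median, and -0.34 over genes that reached 10 CPM in either group, against 0.08 and 0.14 in summed reads. The cause of these shifts was not tested. GFP cells called S numbered 8, against 13, when scores were scaled over all cells. Promoter methylation of the members was 6.22% in Actin-RFP ESCs, 13.1% in Gjb2-35delG ESCs and 21.4% in MEFs from 2000 bases before to 1000 after the start, and 4.91% in MEFs within 500 bases of it. The sign of the ratio held in every setting for 22 of 32 members; among the 10 whose sign changed were Cdc6, Tyms, Slbp, Mki67, Cenpe and Ccnb1. Thinning each cell to 500000 reads kept the S, G2/M or neither call of all 55 RFP cells and of 38 of 40 GFP cells. The number of embryos behind each group is not given and limits every comparison between the groups.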
